A study of Mus musculus with 2 samples.

Results

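The cells described here are mesenchymal cells of the AGM (aorta-gonad-mesonephros) region that held Wnt2 and Postn transcripts together with abundant type I collagen and little smooth muscle actin. They were selected on their own counts. From barcodes with at least 2000 UMIs (unique molecular identifiers, each standing for 1 captured transcript) and under 10% of UMIs from mitochondrial genes, those were kept in which Col1a2 made at least 0.1% of UMIs, Postn had at least 3 UMIs, Wnt2 had at least 1 UMI and Acta2 and Tagln together made under 0.2% of UMIs. This gave 368 of 16418 barcodes, 334 of 8253 in WT and 34 of 8165 in KO. The levels of these 5 genes are therefore a description of the choice and not a finding.

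AGM regions of mouse embryos at embryonic day 11 had been dissociated and sequenced from the 3′ end on the 10x Chromium platform, 1 library from PDGFRB +/+ embryos (WT) and 1 from PDGFRB -/- embryos (KO), each loaded for 7000 cells. The KO allele removes PDGFRβ, a receptor tyrosine kinase of mesenchymal and mural cells, from every cell of the embryo, and per the study's methods it was kept in heterozygous mice on a C57BL/6J background. The WT library held 179743201 UMIs and the KO library 174597654. No barcode of the 368 cells was a qualifying barcode of the other library. With 1 library per genotype no test between genotypes was possible, so levels are given as CPM (the UMIs of a gene in each 1000000 UMIs summed over the cells of a group) and ratios as log2 of KO over WT. The 95% intervals in parentheses cover counting error only and leave out the variation between embryos.

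Wnt2 is a secreted ligand of the canonical Wnt pathway, known for its expression in lung and other splanchnic mesenchyme and in heart progenitors. Periostin, the product of Postn, is a matricellular protein that binds collagen and integrins and takes part in the cross-linking of collagen fibrils. The collagen chains encoded by Col1a1 and Col1a2 assemble into type I collagen, which small leucine-rich proteoglycans such as decorin (Dcn) and lumican (Lum) coat. Msx1 encodes a homeobox factor downstream of BMP signaling that marks undifferentiated mesenchyme of limb, face and body wall.

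Wnt2 lies on chromosome 6 (17988940 to 18030585 of GRCm38, minus strand) and Postn on chromosome 3 (54361109 to 54391037, plus strand), positions taken from GENCODE M21. The stretches just before both genes are shown because these 2 genes define the cells. They come from RefSeq's GRCm38.p6 promoter windows of 250 bases before a start site, kept to the bases outside the GENCODE gene, chr6:18030586-18030695 on the minus strand and chr3:54360857-54361106 on the plus strand. Capitals mark a GATA-type motif in Wnt2 (searched on both strands as AGATAA, as AGATAG, with the first letter T as TGATAA, and likewise as TGATAG) and a TATA box (TATAAA, plus strand only) in Postn.
Wnt2: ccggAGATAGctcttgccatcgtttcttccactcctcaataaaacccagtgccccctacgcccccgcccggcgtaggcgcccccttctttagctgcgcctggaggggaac
Postn: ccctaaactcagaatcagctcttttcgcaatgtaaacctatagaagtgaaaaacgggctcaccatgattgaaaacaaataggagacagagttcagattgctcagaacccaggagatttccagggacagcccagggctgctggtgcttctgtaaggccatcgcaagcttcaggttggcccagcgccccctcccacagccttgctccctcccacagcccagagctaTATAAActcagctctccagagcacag
RefSeq gives Postn a pair of start sites. The window of the first, further upstream, held no such motif and is not shown, the TATA box begins 26 bases before the second, and 7.59% of all 32851 windows of 250 bases held this motif. A GATA-type motif was present in 26.5% of the windows, and the one printed for Wnt2 begins 246 bases before the RefSeq start site, with another match 9 bases before it that lies inside the GENCODE gene and is not printed. A match of letters is a description only, and the motifs were chosen after the sequences and expression values had been seen.

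The cells were far more frequent in WT. They made 4.05% (3.63 to 4.49%) of qualifying barcodes in WT and 0.416% (0.289 to 0.581%) in KO, a log2 ratio of -3.28 (-3.83 to -2.77), or 9.72 times as many in WT (6.82 to 14.3). Of qualifying barcodes, 1173 in WT and 555 in KO held any Wnt2 UMI, and Wnt2 reached 32.1 CPM over all qualifying barcodes of WT and 11.1 CPM over those of KO. The criteria left the libraries at 1088 and 795 barcodes after Col1a2, at 613 and 254 after Postn, at 438 and 47 after Wnt2 and at 334 and 34 after the exclusion of smooth muscle genes. The gap between the libraries thus opened most at the Postn and Wnt2 steps. The ratio kept its sign under all 12 alternative settings, from -4.60 to -2.53. One of these removed the KO barcodes with a Pdgfrb UMI, a step of the study's methods, which left 17 cells of the rule in KO, or 0.231% of the remaining barcodes (log2 ratio -4.13).

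**Figure D1:**
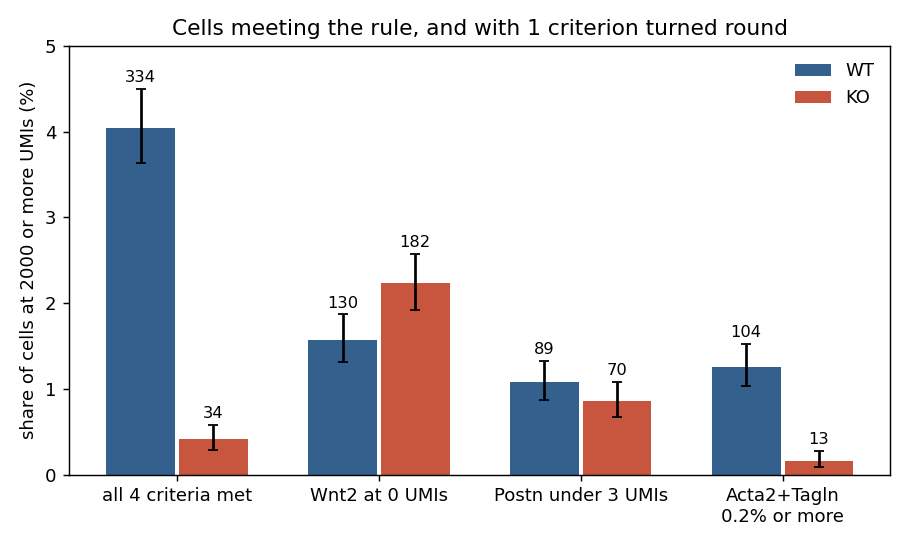
Bars give the share of qualifying cells (in percent, WT blue, KO red) that met all 4 criteria or all but 1, with exact binomial 95% intervals, and the numbers above the bars are cells. The cells of the rule and those with more Acta2 and Tagln were fewer in KO, whereas cells with Wnt2 at 0 were 130 in WT and 182 in KO.

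The neighbours of the rule were counted in the same way. Cells that met every criterion but had Wnt2 at 0 numbered 130 in WT and 182 in KO, a log2 ratio of their shares of 0.50 (0.17 to 0.84). Cells that met every criterion but had under 3 Postn UMIs numbered 89 and 70 (log2 ratio -0.33, -0.80 to 0.14). Those with Acta2 and Tagln at 0.2% or more numbered 104 and 13 (-2.98, -3.94 to -2.15).

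Cells near the limits made different shares of the libraries. Wnt2 stood at exactly 1 UMI in 47 of 334 WT cells (14.1%) and in 10 of 34 KO cells (29.4%), and Postn at exactly 3 UMIs in 29 and 5 cells. Col1a2 lay between 0.1% and 0.2% of UMIs in 74 WT cells (22.2%) and in 23 KO cells (67.6%). The limit on Acta2 and Tagln went the other way, with 78 WT cells (23.4%) and 2 KO cells (5.88%) at 0.1% or more of UMIs. Just outside, 30 WT and 11 KO barcodes met all else with 2 Postn UMIs, and 25 and 27 met all else with Col1a2 between 0.05% and 0.1%. The KO cells were also read deeper, with a median of 41942 UMIs and 6874.5 genes against 18178.5 UMIs and 4384 genes in WT, although the medians over all qualifying barcodes were 12391 UMIs in KO and 13321 in WT. When every barcode with at least 10000 UMIs was thinned to 10000 UMIs before the rule was applied, 203 WT and 8 KO cells met it. Doublets were kept.

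The genes of the rule are given as a description. Wnt2 ran from 7.17 through a median of 227 to 1119 CPM per WT cell and from 6.74 through 93.4 to 556 CPM per KO cell. Postn ran from 45.9 through 677 to 6038 CPM in WT and from 29.6 through 208 to 989 CPM in KO, and Col1a2 from 1040 through 3356 to 16331 CPM in WT and from 1081 through 1473 to 3913 CPM in KO. All 3 medians were higher in WT, and the ranges of the libraries overlapped for each gene.

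The label was checked against its markers. Col1a2, Postn and Wnt2 are in the rule, so Msx1 is the marker that can speak for or against it. Msx1 had a UMI in 239 of 334 WT cells (71.6%) and in 4 of 34 KO cells (11.8%), against 2.69% and 0.463% of erythroid barcodes (hemoglobin at 20% or more of UMIs, median depths of 16738 and 19517 UMIs), which should lack it. Per WT cell, Msx1 ranged from 0 through a median of 92.9 to 726 CPM, and in KO its median was 0 and its highest value 87.9 CPM. Most WT cells thus had a UMI of all 4 markers, some met the rule without Msx1, and the KO cells, most of which lacked it, are called KO cells of the rule below.

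Pdgfrb, the targeted gene, reached 70.5 CPM over WT cells and 13.7 CPM over KO cells (log2 ratio -2.36, -3.0 to -1.79). In all other qualifying barcodes it reached 41.4 and 7.01 CPM. Transcripts of the targeted gene were thus low in the KO library but were found in 17 of 34 KO cells, at no more than 3 UMIs in a cell, against 1.39% of KO erythroid barcodes. Whether these reads come from the part of the gene that the allele removes was not tested. The libraries also differed in sex-linked genes. Xist reached 712 CPM in WT and 0 UMIs in KO (at least 433-fold higher in WT, with 3 counts per library as the limit of detection), and Ddx3y 0 UMIs in WT and 77.3 CPM in KO (at least 229-fold higher in KO). Genotype, sex of the embryos and library can therefore not be told apart in any comparison that follows.

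The cells of the rule were compared with the cells alike in Col1a2, Postn and Acta2 but with Wnt2 at 0. Of 6366 genes with a mean of at least 20 CPM, 0.927% were 2-fold or more higher in both libraries in the cells of the rule and 0.534% lower in both. The higher genes included transcription factors. Ratios against these comparison classes were taken with 0.5 UMIs added to each sum. Tbx20, a T-box factor of heart and lateral mesoderm, stood at 57.6 CPM against 2.80 CPM in WT and at 28.5 against 1.18 CPM in KO, log2 ratios of 4.31 and 4.51. Pitx1, a homeobox factor of hindlimb and posterior lateral plate mesoderm, stood at 254 against 20.3 CPM in WT and at 142 against 4.38 CPM in KO, log2 ratios of 3.64 and 4.99. Hand1, a bHLH factor of lateral and extraembryonic mesoderm (3.65 and 2.55), and Mab21l2 (3.60 and 3.1) were also higher, together with Msx1 (3.30 and 2.49, the KO value resting on 9 UMIs against 5) and the posterior Hox gene Hoxd11 (2.01 and 2.27).

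Genes better known from epithelia were also higher than in cells with Wnt2 at 0. The keratins Krt8 and Krt19 had log2 ratios of 3.82 and 3.07 in WT and of 3.26 and 3.90 in KO, and Dsp, which encodes the desmosomal protein desmoplakin, of 3.0 and 2.89. Krt8 was found in 303 of 334 WT cells (90.7%) and 14 of 34 KO cells, against 3.50% and 0.926% of erythroid barcodes. Kdr, the VEGF receptor of endothelium that is also expressed in early lateral mesoderm, was higher as well (2.28 and 2.08). Epcam (3.26 and 2.74 CPM), Cdh1 (0.563 CPM and 0 UMIs), Pecam1 (1.69 and 1.10 CPM) and Cdh5 (1.13 CPM and 0 UMIs) were at or near 0 in WT and KO cells (0 UMIs in KO allows up to 1.64 CPM), so the keratins and Kdr came without the defining genes of epithelium and endothelium. Pitx1, Tbx20 and Krt8 were also present in other collagen-rich cells with Wnt2. In WT, those with under 3 Postn UMIs held Pitx1 at 223 CPM, Tbx20 at 34.5 CPM and Krt8 at 140 CPM, and those with more Acta2 and Tagln held them at 289, 55.8 and 274 CPM. Of the epithelial list, 3 of 3 genes compared were higher in both libraries against Wnt2 at 0, and 0 of 3 against each of these other classes.

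On the low side were Ednrb, an endothelin receptor (7.88 against 50.5 CPM in WT, and 3 UMIs against 140 in KO), the protease gene Adamts18 (log2 ratios of -2.30 and -3.70), the forkhead factor Foxd1 (-1.92 and -2.18), Hoxa7 (-1.62 and -1.81) and the elastic fiber gene Fbln5 (-1.57 and -1.51). Hoxa7 and Cadm1 turned to the other sign in KO after thinning, where 8 KO cells were left. The dots of WT and KO lie on the same side for each gene plotted, by the rule that named them.

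**Figure D2:**
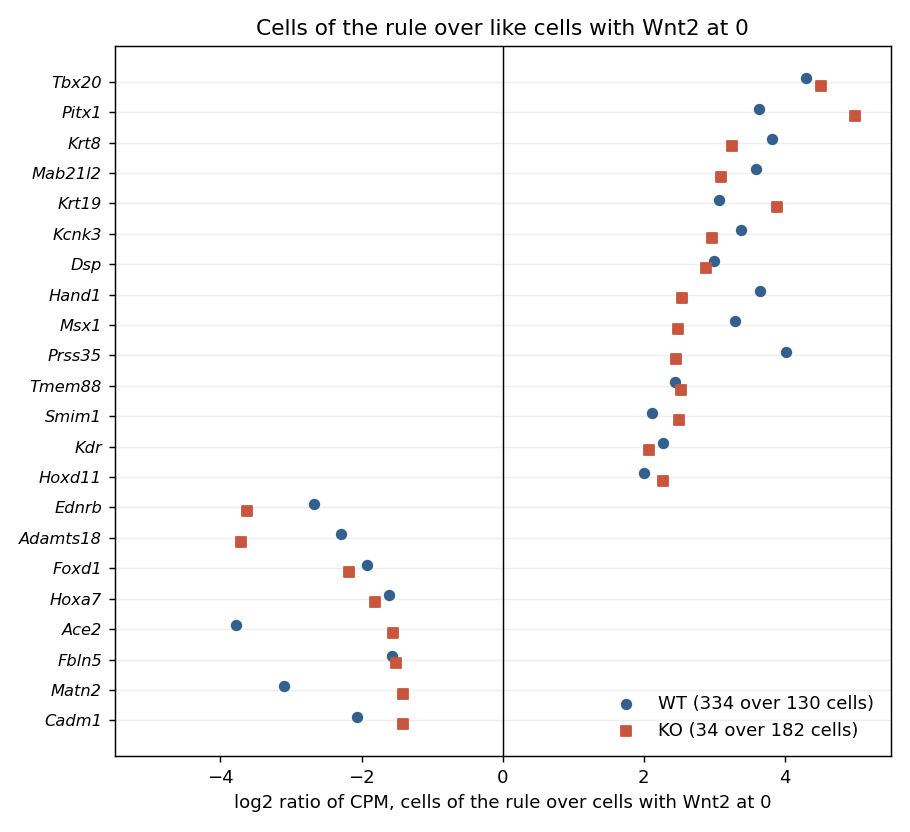
Log2 ratio of CPM in cells of the rule over cells that met the other criteria with Wnt2 at 0 (x axis), for genes among the 15 highest and the 8 lowest (rows), WT as blue circles and KO as red squares. By the weaker ratio of both libraries, Tbx20, Pitx1 and Krt8 lead the higher genes and Ednrb, Adamts18 and Foxd1 the lower ones.

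Against all other qualifying barcodes, 1.97% of 6180 genes were 2-fold or more higher in both libraries and 0.712% lower. Kcnk3, a potassium channel gene, led with 84.3 against 4.09 CPM in WT and 27.9 against 1.5 CPM in KO (log2 ratios of 4.36 and 4.23). Gata6, a zinc finger factor of endoderm, heart and visceral mesoderm, stood at 362 against 64.5 CPM in WT and at 305 against 41.4 CPM in KO (2.49 and 2.88), and it was found in 327 of 334 WT cells (97.9%) and 24 of 34 KO cells (70.6%), against 6.86% and 3.24% of erythroid barcodes. The basement membrane collagen Col4a6 (4.01 and 2.88), Bnc1, a zinc finger gene of keratinocytes and mesothelium (2.84 and 3.26), the secretory pathway factor Creb3l1 (3.44 and 2.55) and Col1a1 (3.46 and 2.33) were also high. The lowest genes belonged to blood cells, with S100a8, S100a9 and Stfa1 of granulocytes, C1qb of macrophages and the hemoglobins. Of 11 fibrillar and associated collagen genes that could be compared, with Col1a2 left out, 6 were higher in both libraries and 1 was lower.

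The Postn limit separated fewer genes. Of 6283 genes, 0.239% were higher in both libraries than in cells with under 3 Postn UMIs and 0.0955% lower. Among these 15 higher genes were the carboxypeptidase gene Cpz (2.15 in WT, 2.22 in KO), Podxl (2.12 and 3.43) and Upk3b (1.97 and 2.95), the latter pair known from coelomic epithelium and mesothelium, and the small proteoglycan gene Fmod (1.55 and 1.18). Podxl and Upk3b were each found in few KO cells, 6 and 5 of 34, and a single KO cell held 53.1% and 57.3% of their UMIs, and Upk3b turned to -0.30 in KO after thinning to 10000 UMIs. The chemokine gene Cxcl14 (-2.79 and -2.79) and Adamts18 (-2.13 and -1.60) were lower. After the same thinning, where 8 KO cells were left, the counts of 15 higher and 6 lower genes became 41 and 24. Other genes of this contrast, listed in the last section, also changed sign in KO.

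Cells above the smooth muscle limit met the other criteria and carried genes of the contractile apparatus. Actg2 stood at 15.2 CPM in WT cells of the rule against 1492 CPM in those cells, and at 15.9 against 1378 CPM in KO, log2 ratios of -6.61 and -6.41. Cnn1, Lmod1 and Myh11, which belong to the same apparatus, ranged from -6.64 to -4.38, and Ankrd1, a target of YAP, had 3 UMIs against 500 in WT and 1 UMI against 175 in KO. In all, 2.21% of 6293 genes were lower in both libraries in the cells of the rule and 1.02% higher. The higher ones included Fos and Egr1, which dissociation of tissue can induce (2.30 and 1.63 in WT, 3.09 and 2.68 in KO), Plpp3 (1.94 and 2.81) and Tcf21, a bHLH factor of visceral mesenchyme (1.73 and 2.82). Of 9 dissociation stress genes compared, 3 were higher in both libraries and 0 lower. Summed, that list stood lower in the cells of the rule, at 3601 against 3746 CPM in WT and 3245 against 3896 CPM in KO. Of the smooth muscle and mural genes, 12 could be compared here with Acta2 and Tagln left out, of which 8 were lower in both libraries and none higher. The rule used Acta2 and Tagln, so this contrast describes the limit and is no test of it.

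WT and KO cells of the rule were then compared across all genes. Of 8581 genes with a mean of at least 10 CPM and at least 30 UMIs, 4.15% (356) were 2-fold or more higher in KO and 3.19% (274) lower, with a median log2 ratio of 0.14 over all of them. Relative to that median, 253 were higher and 359 lower, and with TMM factors of edgeR in place of total UMIs the split was 225 higher and 396 lower. The number of cells behind the KO values is small, and a single cell can carry a gene. Myl7, a cardiac myosin light chain gene among the 12 highest in KO (log2 ratio 3.43), had 97.3% of its KO UMIs in 1 cell, Tm4sf5 (3.99) had 94.4% and Lhx9 (2.69) 76.7%. For that reason the share of cells with a UMI is given beside many levels below. With a mitochondrial limit of 5%, where 121 WT and 5 KO cells were left, Osr1, Tcf21, Cxcl12, Id2, Id4, Pdgfc, Lox, Igfbp2, Adamts2, Kdr and Ebf1 changed sign.

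**Figure D3:**
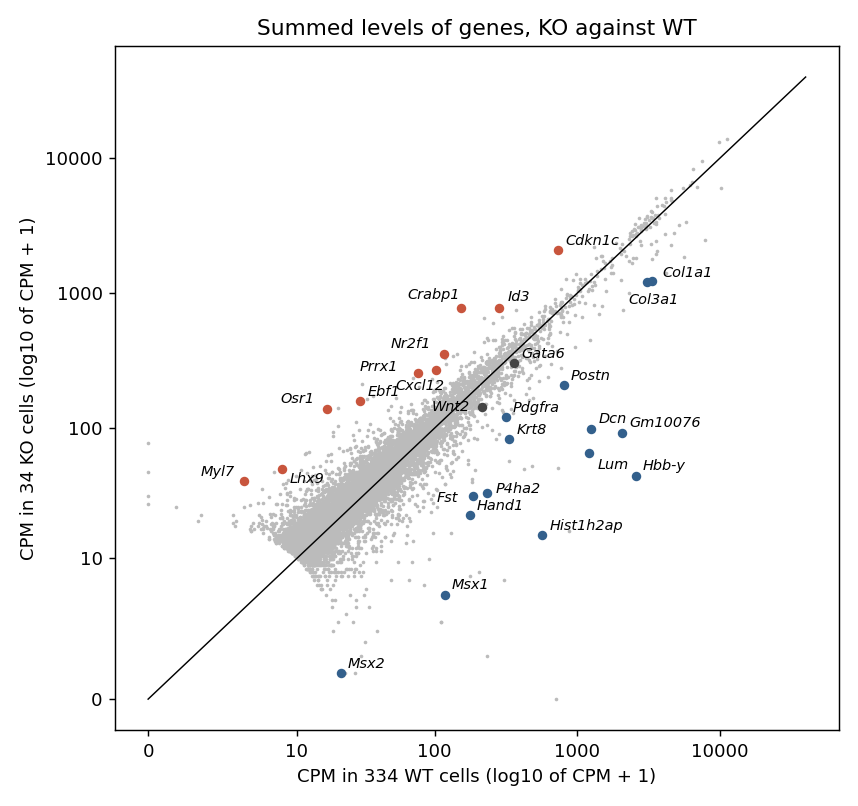
Each point is a gene, placed by its CPM over 334 WT cells (x axis) and 34 KO cells (y axis), both on a log10 scale of CPM + 1. Named genes are blue where 2-fold or more lower in KO, red where higher and grey otherwise, and Dcn, Lum and Msx1 lie far below the line of equal levels while Osr1 and Crabp1 lie above it.

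The proteoglycan genes Lum and Dcn were lower in KO. Lum stood at 1209 CPM in WT cells and 65.2 CPM in KO cells (log2 ratio -4.21, -4.49 to -3.95), and Dcn at 1255 and 99.2 CPM (-3.66, -3.88 to -3.45). Per WT cell, Lum ranged from 0 through a median of 1209 to 5470 CPM, and per KO cell from 0 through 12.4 to 769 CPM. Lum had a UMI in 312 of 334 WT cells (93.4%) and 19 of 34 KO cells (55.9%), against 6.46% and 1.39% of erythroid barcodes. With each cell thinned to 2000 UMIs, 76.3% of WT and 8.82% of KO cells still held a Lum UMI, a wider gap than at full depth. Across all other qualifying barcodes the log2 ratios were -0.01 for Lum and -0.39 for Dcn, and the genes are neighbours on chromosome 10 (97565128 to 97572703 and 97479609 to 97518143). In the classes nearest to these cells Lum was lower in KO as well, with 730 and 5.88 CPM in the cells with more Acta2 and Tagln, 249 and 77.8 CPM in those with under 3 Postn UMIs and 184 and 79.5 CPM in those with Wnt2 at 0 (log2 ratio -1.21). Dcn and Lum stayed lower in KO under the alternatives listed for this comparison, from -4.19 to -2.99 and from -4.62 to -2.95, but not in the cells without Hand1 and Pitx1 described below.

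Of 11 fibrillar and associated collagen genes counted, with Col1a2 of the rule left out, 5 were 2-fold or more lower in KO and 2 higher, with a median of -0.81, beside 3.19% and 4.15% of all genes. Col1a1 fell from 3330 CPM in WT cells to 1240 CPM in KO cells (-1.43, -1.49 to -1.36), and Col3a1 from 3073 to 1204 CPM (-1.35, -1.42 to -1.29). Col1a1 was found in each of the 34 KO cells, with a median of 938 CPM against 3578 CPM in WT. In the classes described below, the ratio of Col1a1 was -0.65 in cells with both Hand1 and Pitx1 and 0.26 in cells with neither. That of Col3a1 was -1.51 and 0.73. Col12a1, a fibril-associated collagen, went the other way, with 18.7 CPM over WT cells and 87.7 CPM over KO cells (2.23, 1.91 to 2.55), but stood at -0.25 in cells with both Hand1 and Pitx1.

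Among 15 genes of collagen processing, 5 were lower and none higher, with a median of -0.52. The counts of this paragraph stand beside 3.19% of all genes lower and 4.15% higher. P4ha2, a subunit of the prolyl 4-hydroxylase that stabilises the collagen helix, stood at 234 and 32.3 CPM (-2.85, -3.25 to -2.48), and P4ha1, Pcolce, Adamts2 and Fkbp14 were the others. Of 21 counted matricellular and elastic matrix genes, with Postn of the rule left out, 2 were lower, namely Dcn and Lum, and 3 were higher, Fbln5, Lox and Thbs1. Lox, the enzyme that cross-links collagen and elastin, stood at 9.57 and 28.5 CPM (1.57, 1.05 to 2.09). Of 11 counted basement membrane genes, Col18a1 (338 and 84.9 CPM, -1.99, -2.24 to -1.76) and Col4a5 were lower, and Col4a1, Col4a2 and Lama2 were higher.

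Of 19 counted glycolysis and hypoxia genes, 7 were lower in KO cells and none was higher, with a median of -0.72. Of all genes, 3.19% were lower and 4.15% higher. Ldha, which converts pyruvate to lactate, stood at 463 CPM in WT cells and 198 CPM in KO cells (-1.22, -1.38 to -1.07), and Bnip3, Pdk1, Slc2a1, Aldoa, Eno1 and Ndrg1 were the other lower genes. In all other barcodes the ratio of Ldha was 0.16. The summed level of the list was 5386 CPM in WT cells of the rule and 3659 CPM in KO cells. It was lower in KO in the nearest classes too, at 5383 and 3730 CPM with more Acta2 and Tagln, 4459 and 3661 CPM with under 3 Postn UMIs and 4030 and 3585 CPM with Wnt2 at 0, and stood at 4843 and 4965 CPM in all other barcodes.

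Transcription factors stood on both sides. Msx1 fell from 118 to 4.93 CPM (-4.58, -5.71 to -3.65), Msx2 from 21.3 CPM to 1 UMI (-5.28, -10.59 to -2.78) and Hand1 from 177 to 21.9 CPM (-3.01, -3.50 to -2.56). Hand1 was found in 285 of 334 WT cells (85.3%) and in 8 of 34 KO cells (23.5%), against 1.21% of WT erythroid barcodes and 0 of 216 in KO, which allows a share of up to 1.39%. Per cell, Hand1 ran from 0 through a median of 159 to 972 CPM in WT and from 0 through a median of 0 to 198 CPM in KO, so the ranges overlapped at their low ends. Tbx20 (-1.02, -1.46 to -0.60) was lower by less, while Gata6 was within 2-fold (362 and 305 CPM). On the higher side were Osr1, a zinc finger factor of intermediate and lateral mesoderm (16.9 and 140 CPM, 3.05, 2.75 to 3.35), Prrx1, a homeobox factor of limb and craniofacial mesenchyme (76.0 and 256 CPM, 1.76, 1.58 to 1.93), and the orphan receptors Nr2f1 (117 and 356 CPM, 1.60, 1.46 to 1.75) and Nr2f2 (135 and 346 CPM, 1.36, 1.22 to 1.5). Osr1 was found in 48 of 334 WT cells (14.4%) and 22 of 34 KO cells (64.7%), against 3.77% and 2.31% of erythroid barcodes, and after thinning to 2000 UMIs in 1.80% and 23.5%. Nr2f2 was found in 164 WT cells (49.1%) and 31 KO cells (91.2%), and after thinning in 10.8% and 32.4%, the same direction at equal depth. In cells with both Hand1 and Pitx1, described below, Prrx1 (0.50) and Nr2f2 (0.56) were within 2-fold, whereas Osr1 (2.76) and Nr2f1 (1.13) were not. In cells with neither, Prrx1 (0.48), Nr2f2 (-0.22), Osr1 (0.87) and Nr2f1 (-0.04) were all within 2-fold.

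The lists these genes belong to moved in both directions. Of 16 counted genes of splanchnic and cardiopulmonary mesoderm, 5 were higher in KO (Osr1, Gata5, Tcf21, Nr2f1 and Nr2f2) and 3 lower (Tbx20, Hand1 and Barx1). Of 12 counted genes of body wall and limb mesenchyme, 4 were higher (Tbx18, Hic1, Meis2 and Lhx9) and 4 lower, and of 6 counted Msx, Dlx, Twist and Prrx genes 1 was higher and 2 were lower. Lhx9 turned to -2.71 at a Wnt2 minimum of 2 UMIs and to -2.78 in cells with both Hand1 and Pitx1. Of 20 counted Hox genes, which record axial position, 18 were within 2-fold, among them Hoxc8 at 164 and 176 CPM. Hoxd9 and Hoxd10 were higher in KO (1.95, 1.54 to 2.36 and 1.05, 0.58 to 1.51) and none was lower. Of all genes, 4.15% were higher and 3.19% lower, so most genes of the whole comparison were within 2-fold too. Barx1, a homeobox factor of stomach mesenchyme, had UMIs in 26 WT cells (7.78%) and in 4 KO cells (11.8%, 1 UMI in each), against 2.42% of WT erythroid barcodes and 0 of 216 in KO. The log2 ratio of Barx1 turned to 2.79 after thinning to 10000 UMIs, where 8 KO cells were left. Tcf21 was found in 74 WT cells (22.2%) and 14 KO cells (41.2%), and after thinning in 4.49% and 14.7%.

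**Figure D4:**
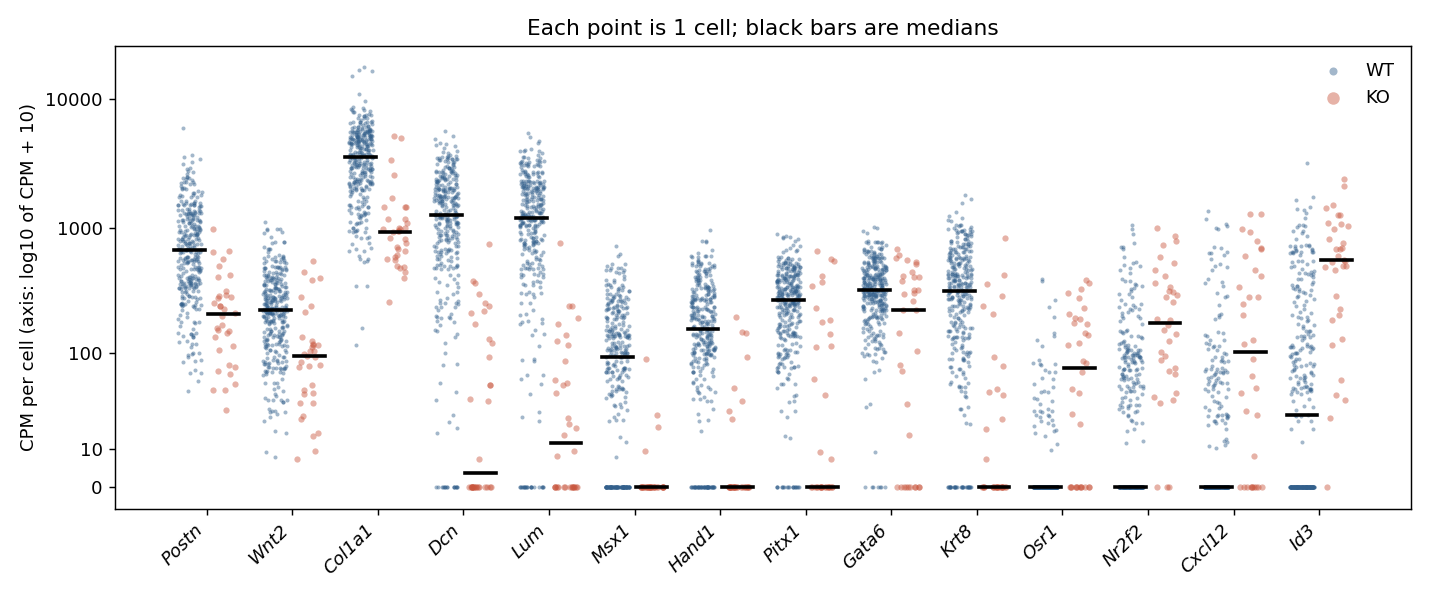
CPM per cell (y axis, log10 of CPM + 10) of 14 genes in the 334 WT cells (blue) and 34 KO cells (red), with black bars at the medians. Postn and Wnt2 belong to the rule; Lum has medians of 1209 and 12.4 CPM and Id3 of 26.5 and 558 CPM.

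Signaling genes followed several patterns. The counts from here through the G2M and S lists stand beside 4.15% of all genes higher in KO and 3.19% lower. Of the Wnt ligands, 5 of 19 were counted. Wnt2, which the rule selects on, stood at 216 and 143 CPM, Wnt4 at 39.5 and 30.7 CPM and Wnt5a at 22.4 and 42.8 CPM, and Wnt5b was lower in KO at 29.6 and 8.77 CPM (-1.76, -2.58 to -1.03, but 0.22 after thinning to 10000 UMIs). Of 4 counted Wnt target genes, Axin2, the negative feedback gene of the canonical pathway (19.5 and 7.12 CPM, -1.45, -2.39 to -0.64), and Nkd1 (49.1 and 18.6 CPM, -1.40, -1.95 to -0.89) were lower and Ccnd1 was higher (1.15, 0.83 to 1.46). Of 17 counted receptors and modulators, the agonist gene Rspo3 (2.02, 1.75 to 2.30, but -1.66 in cells with both Hand1 and Pitx1) and Fzd1 were higher and Rspo1 (-1.35, -1.98 to -0.79) was lower, and Sfrp1 and Sfrp2, which encode secreted antagonists, were within 2-fold (357 and 320 CPM, 495 and 339 CPM). The Wnt lists therefore held members past 2-fold on both sides.

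Id1 to Id4, inhibitors of bHLH factors and direct targets of BMP signaling, were each 2-fold or more higher over all KO cells of the rule, but Id4 stood at -1.68 in cells with both Hand1 and Pitx1. Id3 stood at 284 CPM in WT cells and 778 CPM in KO cells (1.46, 1.36 to 1.55) and was found in 175 of 334 WT cells (52.4%) and 33 of 34 KO cells (97.1%), against 31% and 30.6% of erythroid barcodes. Thinned to 2000 UMIs, 19.8% and 67.6% of cells held one. The others had ratios of 1.31 (Id1), 1.31 (Id2) and 1.09 (Id4). In all other barcodes Id3 was at -0.01. The summed BMP and TGF-beta list, in which Id3 was the most abundant gene, stood at 2294 CPM in WT cells of the rule and 3036 CPM in KO cells. With more Acta2 and Tagln it was higher in KO too, at 2164 and 3380 CPM. It stood at 2691 and 2855 CPM with under 3 Postn UMIs, 3002 and 2919 CPM with Wnt2 at 0 and 2152 and 2327 CPM in all other barcodes. Follistatin (Fst), an antagonist of activin and BMP, was lower (185 and 30.7 CPM, -2.59, -3.0 to -2.21), and over the list of 29 counted BMP and TGF-beta genes 6 were higher and 4 lower. Of 12 counted retinoic acid genes, 4 were higher, none was lower and the others were within 2-fold. Of all genes, 4.15% were higher and 3.19% lower. The summed list stood at 617 CPM in WT cells of the rule and 1601 CPM in KO cells. It was higher in KO in the nearest classes too, at 350 and 1062 CPM with more Acta2 and Tagln. It stood at 1550 and 2124 CPM with under 3 Postn UMIs, 1412 and 2270.5 CPM with Wnt2 at 0 and 1169 and 1232 CPM in all other barcodes. Crabp1, a binding protein, stood at 154 and 785 CPM (2.35, 2.24 to 2.45), but at a ratio of -1.35 in cells with both Hand1 and Pitx1, 0.14 in cells with neither and -0.52 at a Col1a2 minimum of 0.2%. Rdh10, which makes retinal, stood at 11.8 and 65.2 CPM (2.46, 2.07 to 2.86), and Aldh1a2, which makes retinoic acid from it, at 26.0 and 88.2 CPM (1.76, 1.46 to 2.06). A single KO cell held 34.8% of the Crabp1 UMIs of KO and a single WT cell 31% of those of WT.

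PDGF, IGF and niche genes complete the signaling lists. Pdgfra, the receptor related to the targeted one, stood at 317 CPM in WT cells and 121 CPM in KO cells (-1.39, -1.60 to -1.19), with UMIs in 96.4% and 97.1% of cells against 7.67% and 7.87% of erythroid barcodes, and the ligand Pdgfc at 8.89 and 30.7 CPM (1.79, 1.27 to 2.30). Of 18 counted IGF and imprinted growth genes, Cdkn1c, a maternally expressed inhibitor of the cell cycle, was higher at 736 and 2085 CPM (1.5, 1.44 to 1.56), as were Igfbp2 and Igfbp3, although Igfbp2 stood at -1.12 in cells with both Hand1 and Pitx1, -0.36 at a Col1a2 minimum of 0.2% and -2.40 at a mitochondrial limit of 5%. Dlk1 was lower at 1436 and 698 CPM (-1.04, -1.12 to -0.96). The imprinted H19 RNA stood at 1052 and 1043 CPM. Of 12 counted stem cell niche factors, 4 were higher and none lower in KO, beside 4.15% and 3.19% of all genes. The higher ones were the chemokine gene Cxcl12 (102 and 271 CPM, 1.42, 1.26 to 1.58), Kitl (1.04), Vcam1 (1.59) and Vegfc. The summed list stood at 394 CPM in WT cells of the rule and 655 CPM in KO cells, and at 500 and 1238 CPM with more Acta2 and Tagln. It stood at 505 and 622 CPM with under 3 Postn UMIs, 819 and 780 CPM with Wnt2 at 0 and 463 and 478 CPM in all other barcodes. Cxcl12 was found in 113 of 334 WT cells (33.8%) and 24 of 34 KO cells (70.6%), after thinning in 8.68% and 32.4%, and a single KO cell held 18.2% of its KO UMIs. Of the hedgehog genes, 2 of 9 were higher (Ptch1 and Boc), and of the FGF genes 0 of 3 passed 2-fold.

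The summed G2M list stood at 2215 CPM in WT cells and 3215 CPM in KO cells, with 1 of 20 genes past 2-fold and a median of 0.52, and the S list at 1103 and 1233 CPM with none past it. Dissociation stress genes had a median of -0.19, with none of 14 past 2-fold.

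The KO cells were not uniform, and neither were the WT cells. Hand1 and Pitx1, which mark the WT cells without being in the rule, were both detected in 280 of 334 WT cells (83.8%, 79.4 to 87.6%) and in 8 of 34 KO cells (23.5%, 10.7 to 41.2%). Neither was detected in 14 WT cells (4.19%, 2.31 to 6.93%) and in 18 KO cells (52.9%, 35.1 to 70.2%), although these had medians of 27925.5 and 30753.5 UMIs. This split was made after the values had been seen and is a description. Its classes differ between the libraries, so 31 genes were also compared within a class.

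Within cells with both genes, members differed in what remained of the gap. Gata6 stood at 372 CPM in the 280 WT cells and 467 CPM in the 8 KO cells, Tbx20 at 65.9 and 61.1 CPM, Kdr at 129 and 124 CPM and Krt8 at 381 and 290 CPM, all within 2-fold. Lum still fell from 1384 to 148 CPM (-3.22, -3.59 to -2.88), Dcn from 1446 to 181 CPM (-3.0, -3.33 to -2.69), P4ha2 from 267 to 56.7 CPM (-2.24, -2.85 to -1.68) and Msx1 from 137 to 17.5 CPM (-2.97, -4.19 to -1.99). Foxd1 (27.6 and 6.54 CPM, the latter from 3 UMIs, -2.08, -4.37 to -0.51) was also lower in KO. The class had median depths of 18618 UMIs in WT and 49367 UMIs in KO, and since a Hand1 and a Pitx1 UMI define it, their own levels in it are not compared. Of the collagens, Col1a1 (3674 and 2343 CPM, -0.65, -0.74 to -0.56) was within 2-fold and Col3a1 (-1.51, -1.64 to -1.39) was not. Col1a2, which the rule selects on, stood at -0.76 (-0.85 to -0.67), a description of the choice. Crabp1 was at 72.3 and 28.4 CPM here (-1.35, -2.27 to -0.56), the other sign from the ratio over all cells. Of the 24 genes named for the KO to WT comparison, 15 kept their direction past 2-fold in this class.

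Within cells with neither gene, many of the genes that were higher in KO over all cells stood at like levels. Nr2f1 stood at 621 CPM in the 14 WT cells and 602 CPM in the 18 KO cells, Crabp1 at 1175 and 1294 CPM, Cxcl12 at 593 and 484 CPM, Id3 at 1072 and 896 CPM and Foxd1 at 288 and 203 CPM, all within 2-fold. Dcn (32.7 and 89.3 CPM, log2 ratio 1.45, 0.70 to 2.26) and Lum (31 and 63.4 CPM, 1.03, 0.22 to 1.89) were higher in KO here, as was Fst (8.17 and 24.5 CPM, 1.58, 0.09 to 3.38). Each had the other sign from its ratio over all cells. Col3a1 (0.73, 0.59 to 0.88) and Col1a1 (0.26, 0.08 to 0.44) also had the other sign but were within 2-fold. Tcf21 was lower (131 and 38.9 CPM, -1.75, -2.44 to -1.10), and Tbx20 had 0 UMIs in both, which allows up to 4.90 and 4.32 CPM. In WT, Nr2f1, Cxcl12, Crabp1 and Id3 were each higher in these 14 cells than in the 280 cells with both genes (63.6, 48.7, 72.3 and 192 CPM). Among the cells with both, Osr1 (2.76, 2.01 to 3.47), Nr2f1 (1.13, 0.73 to 1.51) and Cdkn1c (1.10, 0.97 to 1.22) were 2-fold or more higher in KO. Prrx1 (0.50, -0.04 to 1.00), Nr2f2 (0.56, 0.14 to 0.96), Cxcl12 (0.56, 0.00 to 1.08) and Id3 (0.87, 0.63 to 1.11) were within 2-fold there.

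**Figure D5:**
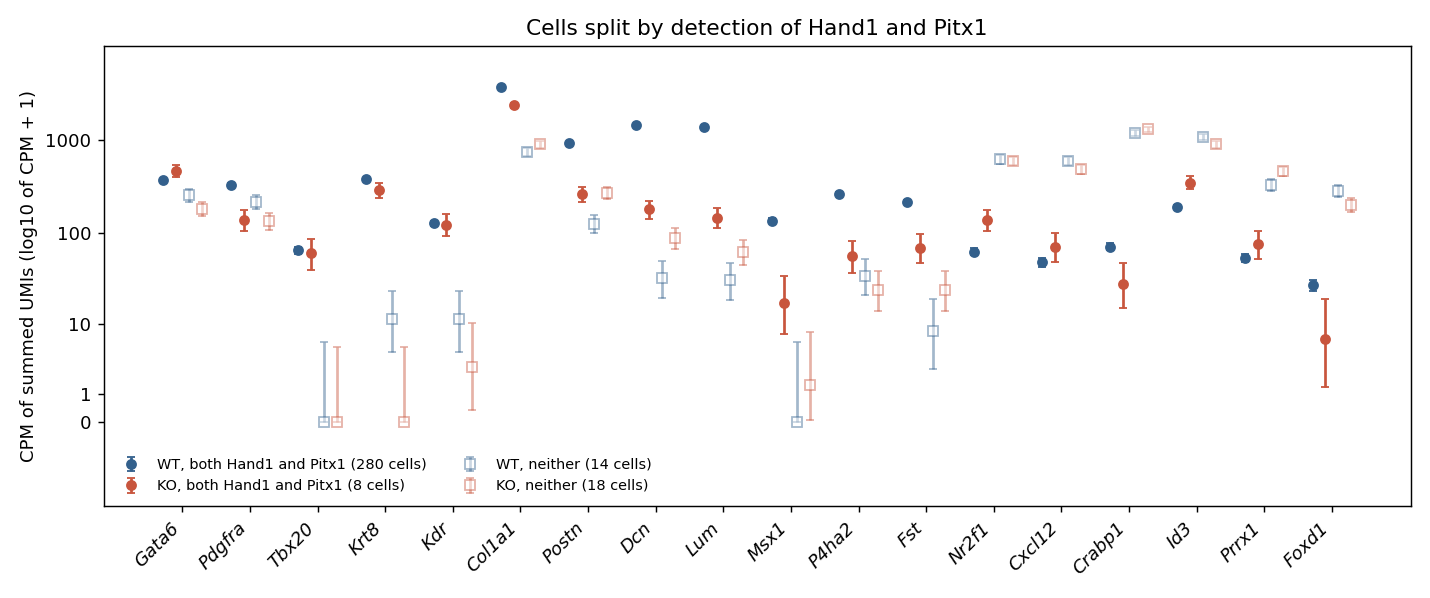
CPM (y axis, log10 of CPM + 1) with exact Poisson 95% intervals of 18 genes in cells with both Hand1 and Pitx1 (filled circles) and cells with neither (open squares), WT blue and KO red. Gata6, Tbx20, Krt8 and Kdr sit close together for WT and KO in the first class, where Dcn, Lum, Msx1 and P4ha2 lie lower in KO.

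Levels also varied together among the 334 WT cells. These cells share the preparation of 1 library but differ in depth, from 5102 to 139519 UMIs. Across them, the CPM of Hand1 went with that of Dcn (Spearman rho 0.57), Lum (0.50), Postn (0.51), P4ha2 (0.44) and Col1a1 (0.42). It went against that of Id3 (-0.42), Nr2f1 (-0.40), Cdkn1c (-0.37) and Osr1 (-0.34), and the rho of Hand1 with total UMIs was -0.11. Postn, a gene of the rule, went with Col3a1 (0.73), Dcn (0.70) and Lum (0.68) in WT, while the same pairs gave 0.38, 0.06 and 0.13 over the 34 KO cells, and Hand1 with Postn 0.08. The rho of Postn with total UMIs was -0.15 in WT and -0.47 in KO. Wnt2, also a gene of the rule, went with Pitx1 (0.40) and little with Dcn (0.06) or Postn (0.07), and against total UMIs (-0.33). The rule asks for at least 1 Wnt2 UMI and 3 Postn UMIs, so the lowest CPM a cell can have falls as its UMIs rise. The rho of Wnt2 and of Postn with total UMIs is thus set in part by the selection and is a description of it. In the 34 KO cells Hand1 went with Kdr (0.82), Krt8 (0.79) and Pitx1 (0.77) and against Cdkn1c (-0.59). These are descriptions over cells and carry no test. After thinning to 2000 UMIs, the genes with the highest ratio of variance to mean in both libraries were Malat1 (8.85 in WT and 4.90 in KO), Crabp1 (3.57 and 6.80) and Col1a1 (3.96 and 3.27), followed by the mitochondrial mt-Co3, Ptn, Lsp1, Col3a1, mt-Atp6, Vcan and Itm2a.

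Some differences between WT and KO cells of the rule came with markers of other cells. The 11 erythroid markers summed to 4493 CPM in WT cells and 86.0 CPM in KO cells, led by Hbb-y at 2570 and 43.8 CPM, and 7 of the 12 lowest genes in KO were hemoglobins. A single WT cell held 31.7% of the Hbb-y UMIs of WT, the WT median per cell was 204 CPM against 44.3 CPM in KO, and erythroid barcodes made 9.0% of the WT and 2.65% of the KO library. Without the 5 WT cells over 1% hemoglobin, the log2 ratio of Hbb-y went from -5.87 to -2.09. Pf4 (-5.33), a platelet and macrophage gene, had 97.1% of its WT UMIs in 1 cell. Hist1h2ap (-5.21) and Gm10076 (-4.48) were at -5.18 and -4.35 in all other barcodes as well. Gm47283, the highest in KO (5.49) outside the list of sex-linked genes, was at 5.66 there, so these 3 differed across the whole libraries. Gm47283 lies on chromosome Y, and the libraries differed in sex-linked genes as described above.

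Other lists were small. Macrophage and leukocyte markers summed to 23.2 and 1.10 CPM, led by Fcer1g, with Ptprc at 0.563 CPM and 0 UMIs, neural crest and neuron markers to 34.8 and 59.2 CPM with Sox10 at 0.113 and 0.548 CPM, skeletal muscle markers to 93.4 and 24.7 CPM led by Actc1, of which 1 WT cell held 85.6%, and cardiomyocyte markers to 28.3 and 78.9 CPM led by Myl4. Endothelial markers (189 and 86.0 CPM) and epithelial markers (526 and 164 CPM) were carried by Kdr and Krt8, described above, sclerotome and cartilage markers summed to 251 and 349 CPM led by Col2a1, smooth muscle and mural genes, without Acta2 and Tagln that the rule limits, to 830 and 728 CPM led by Tpm2, and coelomic epithelium and gonadal ridge markers to 229 and 288 CPM led by Krt19. When the 107 WT and 12 KO cells in the top 5% of UMIs or of 6 of these marker lists were left out, Dcn, Lum, Msx1, P4ha2, Hand1, Osr1, Prrx1, Nr2f1 and Id3 kept their direction. The part of these other cells in single differences was not tested beyond that.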

How the data were processed

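Per the labels and the study's methods, the authors processed the libraries with Cell Ranger 3.1.0 on mm10 (GRCm38) and deposited counts of UMIs per gene and barcode, unfiltered, for 1 WT and 1 KO library. Members, gene lists and comparisons were chosen with earlier results of these data known. Barcodes were selected as described, UMIs were summed over the cells of a group, and CPM, log2 ratios and exact 95% intervals (Poisson, Clopper-Pearson and conditional binomial) were computed with Python 3.11.15, numpy 2.4.6, pandas 2.3.3 and scipy 1.17.1. The scripts were tested on simulated data. Genes were counted at a mean of 10 CPM and 30 UMIs (20 CPM between classes), and past 2-fold was called higher or lower. Named genes were the 12 highest and 12 lowest in KO by the interval bound nearest to 0, without sex-linked genes, the 15 highest and 8 lowest against each class by the weaker of both libraries, the 10 most variable, and the fixed lists, of which 1 gene is not reported here. With 1 library per genotype no test was run. Doublets were kept, as in the study's methods, KO cells with Pdgfrb UMIs, which those methods remove, were kept too, and the study's EmptyDrops and deviation filters were not applied; removing possible doublets or these KO cells, other thresholds, thinning to 10000 UMIs, other totals, TMM factors (edgeR 4.0.16 in R 4.3.3) and subtraction of free RNA were alternatives.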

Additional observations from a re-analysis of the deposited data

How the results depend on the processing

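With 34 KO cells, depth and the number of cells limit every KO value, and the cause of the changes below was not tested. No paired analysis was possible because each genotype has 1 library. The lower share in KO kept its direction under all 12 settings. Without KO barcodes with a Pdgfrb UMI, a setting added for the share after seeing the data, the KO share was 0.231% and its log2 ratio to WT -4.13. The WT share of 4.05% became 4.80% at 5000 UMIs, 5.30% at 10000 UMIs, 3.36% at 5% mitochondrial UMIs, 3.36% and 4.75% at 5 and 1 Postn UMIs, 3.48% at 2 Wnt2 UMIs, 3.15% at 0.2% Col1a2, and 3.1% and 4.50% at 0.1% and 0.4% Acta2 and Tagln. The KO share of 0.416% became 0.613% at 10000 UMIs, 0.172% at 5% mitochondrial UMIs, 0.282% and 0.821% at 5 and 1 Postn UMIs, 0.747% and 0.135% at 0.05% and 0.2% Col1a2, and 0.153% after thinning to 10000 UMIs. Its log2 ratio to WT of -3.28 became -4.29 at 5% mitochondrial UMIs, -2.53 at 1 Postn UMI, -2.54 and -4.55 at 0.05% and 0.2% Col1a2, and -4.60 after thinning. The 356 genes higher in KO became 803 at 5% mitochondrial UMIs, 657 at 0.2% Col1a2, 1135 after thinning, 694 without possible doublets, 652 with means of per-cell CPM, 225 with TMM factors, 65 at a minimum of 50 CPM and 2085 with no minimum. The 274 lower genes became 520 at 5% mitochondrial UMIs, 679 after thinning, 102 at 50 CPM and 663 with no minimum. In cells with both Hand1 and Pitx1, an alternative chosen after seeing the data, as was leaving out cells with over 1% hemoglobin, 539 genes were higher, and 15 of the 24 named genes kept their direction past 2-fold. Against the comparison classes, thinning moved the higher and lower counts from 15 and 6 to 41 and 24 (Postn under 3) and from 122 and 44 to 273 and 77 (all other barcodes), and per-cell means moved the lower count against Wnt2 at 0 from 34 to 21. Of 1528 log2 ratios of KO over WT recomputed for 74 genes with 0.5 UMIs added to each sum, 1096 moved little, 401 moved beyond the counting interval and 31 changed sign, and of 368 between classes 13 changed sign. At 5% mitochondrial UMIs (5 KO cells) these were Osr1 (-0.63), Ebf1 (-2.18), Tcf21 (-2.61), Adamts2 (0.15), Lox (-1.49), Pdgfc (-1.35), Id2 (-0.34), Id4 (-1.90), Igfbp2 (-2.40), Cxcl12 (-3.42) and Kdr (0.36). At 2 Wnt2 UMIs they were Myl7 (-1.04) and Lhx9 (-2.71), at 0.05% Col1a2 Hba-a1 (0.14) and Hbb-bt (0.47), at 0.2% Col1a2 Pf4 (1.87), Myl7 (-2.16), Crabp1 (-0.52) and Igfbp2 (-0.36), after thinning (8 KO cells) Pf4 (0.96), Barx1 (2.79) and Wnt5b (0.22), and without possible doublets Pf4 (1.81) and Myl7 (-0.15). In cells with both Hand1 and Pitx1 (8 KO cells) they were Myl7 (-1.87), Crabp1 (-1.30), Lhx9 (-2.78), Col12a1 (-0.25), Rspo3 (-1.66), Id4 (-1.68) and Igfbp2 (-1.12). Between classes, after thinning, they were Hoxa7 (0.29) and Cadm1 (0.28) against Wnt2 at 0 in KO, Upk3b (-0.30), Tmem108 (-0.34), Atp1b1 (-1.18), Wnt4 (-0.84), Ecm1 (-1.33), Tbx1 (1.35), 2700033N17Rik (0.030), Ptx3 (1.45) and Efemp1 (0.35) against Postn under 3 in KO, and Pf4 (-0.68, KO) and Ebf3 (-0.18, WT) against Acta2 and Tagln high.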
